A study of Mus musculus with 10 samples.

Results

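Open chromatin was compared between mouse bone marrow lineage-negative cells that carried 1 of a pair of leukaemia alleles, Npm1c or Flt3-ITD.
ATAC-seq uses the Tn5 transposase to cut accessible DNA, and each library is represented here by its list of peaks, the places where cuts pile up.
The comparison held 4 of the 10 samples of the series, with 2 libraries a genotype, all on the C57BL/6 strain.
Npm1c libraries came from Npm1flox-cA/+;Mx1-Cre+ mice, and Flt3-ITD libraries from Flt3ITD/+ mice, for which no Cre is named.
The Npm1c allele and Mx1-Cre therefore cannot be told apart here, and the labels used here do not give the age of the mice.
Wild-type (WT) libraries and double-mutant (DM) libraries, which carry both alleles and Mx1-Cre, were read only for the regions chosen in the single mutants, again with 2 libraries each.
Cells were taken from femurs and tibias and depleted of lineage-positive cells with a kit, so the fraction holds stem cells together with progenitors of several lineages.
The replicates are called biological in the labels, which name no animals.

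Peaks of the 4 lists on chromosomes 1 to 19 and X that shared at least 1 bp were merged into 79538 regions, and a library called a region where at least 1 of its peaks lay.
Regions called in both Npm1c and neither Flt3-ITD library are named Npm1c-side regions, and those called in both Flt3-ITD and neither Npm1c library Flt3-ITD-side regions.
With 2 libraries against 2, the smallest exact two-sided p is 0.333, for which reason regions were not tested and the values below are counts and shares.
The lists hold no peak heights, and no source used here gives the number of reads behind each.

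Nucleophosmin, the product of Npm1, is a nucleolar chaperone, and the Npm1c frameshift sends it to the cytoplasm. Leukaemias with this allele are known for high expression of HOXA genes and their cofactor MEIS1.
FLT3 is a cytokine receptor of early progenitors and dendritic cell precursors, and its internal tandem duplication (ITD) signals without ligand through STAT5, RAS-MAPK and PI3K.
Progenitors of the erythroid, megakaryocyte and mast cell lineages rely on GATA factors, those of neutrophils, monocytes and dendritic cells on PU.1, C/EBP and IRF8, and lymphoid progenitors on factors such as PAX5, RUNX3 and NOTCH1.

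Start sites that peaks covered in both libraries of 1 genotype and in neither of the other show the split at promoters. A start counts by that 1 base, so it can lie in a region that the other genotype also called. Of the 22 such starts in the gene lists, 6 are printed, 3 a side, as examples from mast cell, interferon, HOX, neutrophil and platelet genes. The neutrophil list had such starts on both sides. Each run is the 250 bases before the start site, 5′ to 3′ on the gene's strand, from the RefSeq promoter table (GRCm38.p6, the release series of mm10). Capitals mark every match, on either strand, to the letters AGATAA for GATA factors, GAGGAAG for PU.1 and other ETS factors, TGTGGT for RUNX, TGANTCA for AP-1, TTGCNNAA for C/EBP, GAAANNGAA for IRF, TTTATNG for HOX, TTCNNNGAA for STAT factors or GAANNTTC for the heat shock element. On the Npm1c side stand Il1rl1, the IL-33 receptor of mast cells (chr1:40429320-40429569, plus strand), Isg15, an interferon-induced ubiquitin-like protein (chr4:156200819-156201068, minus strand), and the homeobox gene Hoxa7 (chr6:52218574-52218823, minus strand). On the Flt3-ITD side stand Elane, the neutrophil elastase gene (chr10:79886062-79886311, plus strand), Gp9, a subunit of the platelet receptor for von Willebrand factor (chr6:87777820-87778069, plus strand), and the platelet chemokine gene Ppbp (chr5:90768268-90768517, plus strand).
Il1rl1: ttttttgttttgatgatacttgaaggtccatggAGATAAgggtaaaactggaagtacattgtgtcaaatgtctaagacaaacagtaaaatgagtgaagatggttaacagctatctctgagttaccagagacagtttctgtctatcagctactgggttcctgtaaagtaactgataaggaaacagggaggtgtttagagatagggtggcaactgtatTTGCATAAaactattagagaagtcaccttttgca
Isg15: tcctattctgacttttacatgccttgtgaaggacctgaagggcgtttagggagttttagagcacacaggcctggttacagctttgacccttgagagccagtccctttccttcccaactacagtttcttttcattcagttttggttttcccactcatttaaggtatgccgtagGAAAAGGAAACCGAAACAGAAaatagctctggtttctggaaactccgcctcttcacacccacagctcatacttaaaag
Hoxa7: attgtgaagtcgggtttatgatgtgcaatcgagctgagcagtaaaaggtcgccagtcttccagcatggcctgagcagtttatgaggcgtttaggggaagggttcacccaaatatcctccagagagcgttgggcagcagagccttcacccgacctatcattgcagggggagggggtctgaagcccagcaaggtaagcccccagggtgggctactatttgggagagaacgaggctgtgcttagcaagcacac
Elane: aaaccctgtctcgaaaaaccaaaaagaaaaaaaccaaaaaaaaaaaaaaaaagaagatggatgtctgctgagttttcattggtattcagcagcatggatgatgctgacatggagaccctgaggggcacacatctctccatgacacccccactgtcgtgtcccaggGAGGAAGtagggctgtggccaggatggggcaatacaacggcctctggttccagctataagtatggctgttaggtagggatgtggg
Gp9: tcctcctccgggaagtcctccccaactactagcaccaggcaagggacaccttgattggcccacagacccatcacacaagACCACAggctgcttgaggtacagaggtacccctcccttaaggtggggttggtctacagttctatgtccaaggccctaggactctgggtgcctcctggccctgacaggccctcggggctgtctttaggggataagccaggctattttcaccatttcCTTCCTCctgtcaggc
Ppbp: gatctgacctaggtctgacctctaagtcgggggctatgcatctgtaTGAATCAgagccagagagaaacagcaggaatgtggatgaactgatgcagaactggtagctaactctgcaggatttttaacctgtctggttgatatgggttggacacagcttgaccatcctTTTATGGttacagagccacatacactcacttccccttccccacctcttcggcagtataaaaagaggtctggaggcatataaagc

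In these runs Il1rl1 has a GATA match at -217 and a C/EBP match at -34 from the start site, and Isg15 has 3 overlapping IRF matches that begin at -78, -72 and -66.
Elane has a PU.1-type ETS match at -85, Gp9 one at -16 and a RUNX match at -171, and Ppbp an AP-1 match at -204 and a HOX match at -84. Hoxa7 has no match in this window.
Of all 21045 start sites with 300 bases each (250 before, 50 after), 9.68% hold the GATA letters, 10.3% C/EBP, 8.1% IRF, 13.3% ETS, 14.7% RUNX, 7.04% AP-1, 9.49% HOX, 7.76% STAT and 7.27% the heat shock element.
A match describes the letters only.

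At Il1rl1 the peak over the start site was 804 and 788 bp wide in the Npm1c libraries and 758 and 639 bp in WT, with none in either Flt3-ITD or DM library.
Isg15 showed the same order, with 760 and 497 bp in Npm1c, 634 and 397 bp in WT, none in Flt3-ITD, and 294 bp in DM replicate 2 alone.
Hoxa7 differed from these, since peaks of 2254 and 1868 bp lay over its start in Npm1c and none in Flt3-ITD, WT or DM.
The next gene of the cluster with such a start, Hoxa10, had 1837 and 1965 bp in Npm1c, none in Flt3-ITD or WT, and 468 and 1785 bp in DM.
The 2 Hoxa starts were thus covered in both Npm1c libraries and in no WT library. Coverage is of the start base only, so peaks of Flt3-ITD or WT libraries may lie elsewhere in the same regions.

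Elane had peaks of 320 and 301 bp in Flt3-ITD, 366 and 344 bp in DM, 377 bp in WT replicate 1 and none in WT replicate 2 or Npm1c. Its neighbour Prtn3, which encodes proteinase 3 of the same granules, had 460 and 384 bp in Flt3-ITD, 499 and 487 bp in DM, 264 bp in WT replicate 1 and none in the other WT library or in Npm1c.
Both granule gene starts were therefore covered in the Flt3-ITD and DM libraries and in 1 of 2 WT libraries.
The platelet genes did not share that order. Gp9 had 416 and 301 bp in Flt3-ITD, 388 and 232 bp in WT and none in Npm1c or DM, and Ppbp had 416 and 274 bp in Flt3-ITD and none in Npm1c, WT or DM.

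Of the 79538 regions, 17908 (22.5%) lay on the Npm1c side and 4725 (5.94%) on the Flt3-ITD side, and 31979 (40.2%) were called in all 4 libraries.
With the lists as deposited and at equal lengths, mast cell, heat shock, HOX, stem cell and erythroid genes had larger shares of their regions on the Npm1c side and smaller shares on the Flt3-ITD side than all regions, with the widest margin on the Npm1c side for mast cell and heat shock genes. T and NK, monocyte, dendritic, neutrophil, megakaryocyte, JAK-STAT, RAS-MAPK, AP-1 and chromatin genes had the reverse at both lengths. As deposited, the Npm1c-side shares of stem cell (25.1%) and erythroid genes (24.6%) were near the 22.5% of all regions. Set beside regions of like gene density, stem cell and HOX genes had no excess on the Npm1c side.
Npm1c libraries listed 62782 and 68676 peaks and Flt3-ITD libraries 43825 and 51733, so longer Npm1c lists go with the larger count on that side, and the number of reads cannot be told apart from openness.
Cut to the 43794 widest peaks each, the length of the shortest list used, the 4 lists gave 60958 regions, with 8755 (14.4%) on the Npm1c side and 7992 (13.1%) on the Flt3-ITD side.
The Npm1c share of both sides together was 79.1% with the lists as deposited and 52.3% at equal lengths. Lists of 1 length give each genotype about as many calls, so a near-even share follows largely from the cut and does not test the excess. The cut kept peaks down to 327 and 353 bp in Npm1c, but down to 200 and 255 bp in Flt3-ITD. A region with narrow peaks in all lists can thus become Flt3-ITD-side.
The counts of 18 gene lists on the 2 sides moved by over 1.5 times in 32 of 36 cases, so each list is given both ways below.

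The regions of both sides were narrow. Their median width was 388 bp on the Npm1c side and 340 bp on the Flt3-ITD side, against 763 bp for regions called in all 4 libraries.
Of regions 2000 bp or wider, 98.4% were called in all 4, 0.718% lay on the Npm1c side and none on the Flt3-ITD side.
The remaining regions were called in both Npm1c and 1 Flt3-ITD library (6571), both Flt3-ITD and 1 Npm1c library (2302), 1 of each (1326), 1 Npm1c library only (10492) or 1 Flt3-ITD library only (4235).

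The labelled cell type was checked on marker genes. The start sites of Kit, Cd34, Gata2, Tal1, Runx1, Meis1 and Myb, 7 of 7 stem and progenitor markers with a start site in the table, were covered in each of the 4 libraries.
None of the T and NK markers Cd3e, Cd3g and Ncr1 had a call in any of them. No B cell marker start (0 of 3) was covered, but 2 of 4 B cell markers, Pax5 and Ebf1, had called regions in each library. All 3 monocyte, 3 dendritic and 2 mast cell markers also had called regions in each. Of their starts, 0 of 2 monocyte and 1 of 2 dendritic ones were covered in each library, and 1 of 2 mast cell ones in Npm1c replicate 2 alone.
Of the markers of maturing cells, 3 of 4 erythroid starts were covered in every library, 1 and 2 of 3 megakaryocyte starts in Npm1c against 3 and 3 in Flt3-ITD, and 2 and 2 of 5 neutrophil starts against 2 and 3.
In bulk samples a smaller share of cells of a lineage and less open chromatin per cell cannot be told apart, which holds for every lineage value below.

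**Figure D1:**
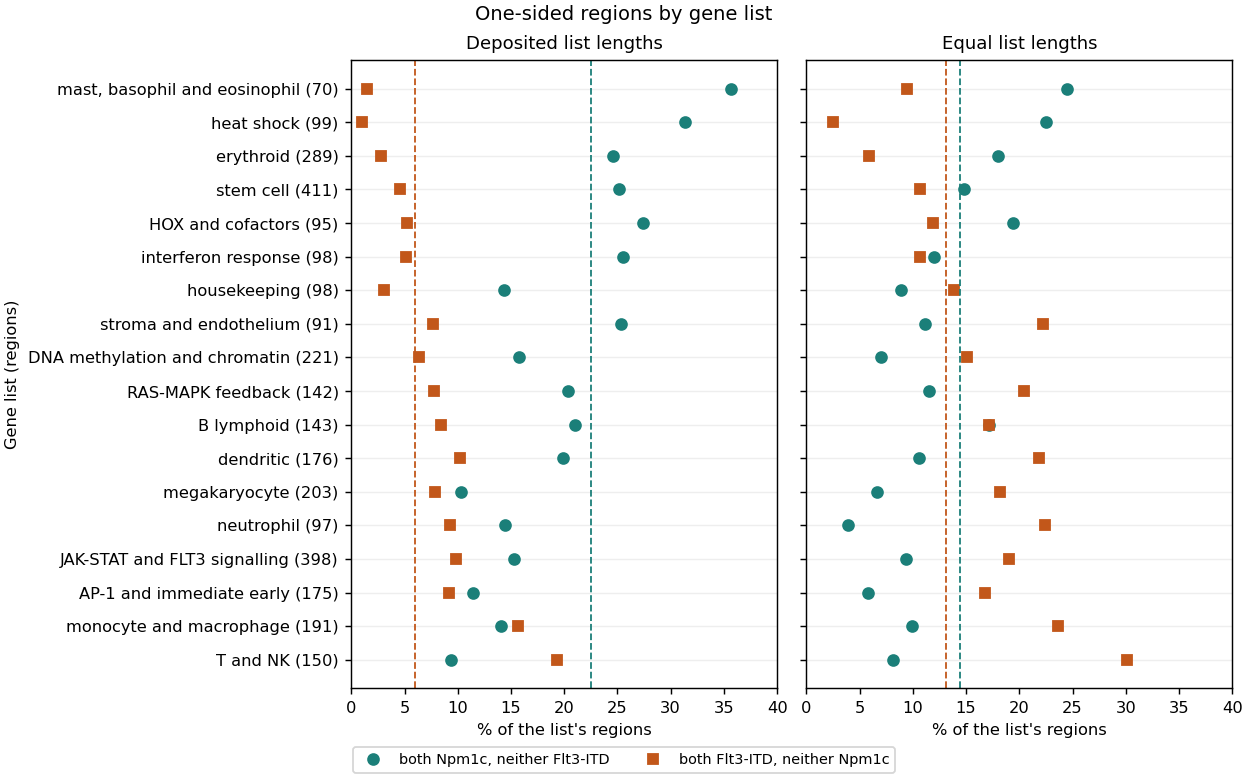
Share of each gene list's regions on the Npm1c side (circles) and on the Flt3-ITD side (squares), in percent of the list's regions, with the lists as deposited (left) and at equal list lengths (right); dashed lines give the shares of all regions. With the lists as deposited, mast cell and heat shock genes sit at 35.7% and 31.3% on the Npm1c side against 22.5% of all regions, and T and NK genes at 19.3% on the Flt3-ITD side against 5.94%.

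Regions were assigned to genes, and 18 lists with 458 genes were counted. Lists can share genes, and a shared gene counts in each. Mast, basophil and eosinophil genes stood farthest on the Npm1c side: 25 of their 70 regions (35.7%) were Npm1c-side and 1 (1.43%) Flt3-ITD-side.
All 3 regions of Il5ra, the interleukin-5 receptor of eosinophils, were Npm1c-side, as were 4 of 6 at the eotaxin receptor gene Ccr3, 6 of 17 at Mitf, a mast cell transcription factor, and 4 of 10 at Hdc, which makes histamine.
Of the 25 regions, 18 (72.0%) were called in both WT libraries and 20 (80.0%) in neither DM library, near the 61.9% and 77.0% of all Npm1c-side regions.
At equal lengths the shares were 24.5% and 9.43%, and the 1 Flt3-ITD-side region became 2 or 3 when any 1 library was left out.

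Erythroid genes had 71 of 289 regions (24.6%) on the Npm1c side, near the share of all regions, and 8 (2.77%) on the Flt3-ITD side, below it, and 18% against 5.86% at equal lengths. Without Flt3-ITD replicate 1 the Flt3-ITD side held 21.
Their share of regions with a call was 81.3% and 85.1% in the Npm1c libraries, 44.3% and 59.2% in Flt3-ITD, 80.3% and 75.4% in WT, and 34.6% and 29.8% in DM. Over all regions the shares were 75.8% and 84.0% in Npm1c and 51.7% and 61.7% in Flt3-ITD. In WT they were 86.2% and 71.9%, and in DM 55.9% and 57.8%. Flt3-ITD libraries thus lay below Npm1c libraries in both, and the erythroid shares were lower than those of all regions in Flt3-ITD and DM.
Sox6, a repressor of embryonic globin, had 14 of 31 regions on the Npm1c side, Car2, a carbonic anhydrase of red cells, 11 of 22, and its neighbour Car1 7 of 8, with none of these 3 genes' regions on the other side.
Peaks covered 62.7% and 53.9% of the Car2 gene in Npm1c, 34.3% and 29.9% in WT, 11.7% and 18.9% in Flt3-ITD, with 7.95% and 6.63% in DM. Without Npm1c replicate 1 Car2 had 17 Npm1c-side regions. Car2 is named for its Npm1c-side regions, so higher coverage in Npm1c than in Flt3-ITD follows from that choice. The same holds for the coverage of each gene named below by its one-sided regions. All peaks together covered 39.6 and 43.2 Mb in Npm1c and 24.2 and 29.8 Mb in Flt3-ITD. WT libraries also lay below both Npm1c libraries at Car2. A gene picked for its peaks in Npm1c is likely to lie lower in any other group, so this order is no separate evidence.
Of the 71 erythroid regions on the Npm1c side, 67 (94.4%) were called in neither DM library, against 77.0% of all Npm1c-side regions.

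The Npm1c-side region with the widest peaks in both libraries lay in the beta-globin cluster, 2396 bp outside Hbb-bt, an adult beta-globin gene (chr7:103808341-103811916). It had 3576 and 3517 bp of peaks in Npm1c and none in Flt3-ITD or DM, and it was called in both WT libraries.

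Heat shock genes showed the smallest share on the Flt3-ITD side of the 18 lists, 1 of 99 regions (1.01%), with 31 (31.3%) on the Npm1c side, and 22.5% against 2.5% at equal lengths.
Of these 31 regions, 19 (61.3%) were called in neither WT library, which sets this list apart from the erythroid list, with 15 of 71, and the mast cell list, with 1 of 25. The share was 15.4% of all Npm1c-side regions.
Calls covered 92.9% and 80.8% of the list's regions in Npm1c, 62.6% and 62.6% in WT, 40.4% and 50.5% in Flt3-ITD, with 38.4% and 37.4% in DM. The list lay above all regions in Npm1c replicate 1 (92.9% against 75.8%) and below them in the other libraries.
Hsph1, a co-chaperone of HSP70, had 7 of its 16 regions on the Npm1c side, among them one of 4720 bp over an end of the gene (chr5:149614659-149619378) with 4720 and 2313 bp of peaks in Npm1c and none in the other 6 libraries.
Peaks covered 78.1% and 35.8% of the Hsph1 gene in Npm1c, 10.9% and 11.7% in WT, 5.52% and 6.43% in Flt3-ITD, with 4.39% and 4.39% in DM.
The HSP40 genes Dnajb4 (5 of 8 regions) and Dnajb1 (4 of 11) followed, and no Flt3-ITD-side region lay at any of these 3 genes. Npm1c replicate 1 had more calls than replicate 2 at all 3 genes, and without replicate 1 or replicate 2 Hsph1 had 13 or 14 Npm1c-side regions. Without replicate 2 Dnajb1 had 7. Without Npm1c replicate 2 the list's count on the Npm1c side was 51, and without Flt3-ITD replicate 1 its count on the Flt3-ITD side was 4.
The list of AP-1 and immediate early genes, which answer stimuli within minutes to hours, was not on the same side: 20 of 175 regions (11.4%) lay on the Npm1c side and 16 (9.14%) on the Flt3-ITD side, with 5.81% and 16.8% at equal lengths. Without either Npm1c library the Npm1c side held 33.

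Stem cell genes had 103 of 411 regions (25.1%) on the Npm1c side and 19 (4.62%) on the Flt3-ITD side, and 14.8% against 10.7% at equal lengths, near the shares of all regions in both cases. Without Flt3-ITD replicate 1 the Flt3-ITD side held 33 and without Npm1c replicate 2 30.
Within the list, Cd34, a surface protein of progenitors, had 11 of 23 regions on the Npm1c side and none on the other. Peaks covered 11.7% and 14.7% of the gene in Npm1c and between 2.48% and 5.82% in the other 6 libraries.
Etv6, an ETS repressor needed by stem cells, had 23 of 58 against 1, while Runx1 had 5 of 41 against 8. Without Npm1c replicate 2 or Flt3-ITD replicate 2 Runx1 had 8 or 9 Npm1c-side regions.
The list thus held genes of both sides.

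HOX genes and cofactors had 26 of 95 regions (27.4%) on the Npm1c side and 5 (5.26%) on the Flt3-ITD side, and 19.4% against 11.9% at equal lengths. Without Npm1c replicate 2 the Npm1c side held 42, and without Flt3-ITD replicate 1 the other side held 14, with 8 without Npm1c replicate 2.
Among its members, Meis1 had 9 of 26 regions and Meis2 5 of 6, both cofactors of HOX proteins, and neither had a Flt3-ITD-side region. Of the 3 genes on the Flt3-ITD side, Mn1, a transcriptional regulator of myeloid leukaemia, had 3 of 12 regions there. Without Npm1c replicate 1 or 2 Meis1 had 17 or 14 Npm1c-side regions.
Of the 9 Meis1 regions, 6 were called in both WT libraries and 1 in neither, so most were also present without the Npm1c allele. That is near all Npm1c-side regions, of which 61.9% were called in both WT libraries.
Interferon response genes had 25 of 98 regions (25.5%) on the Npm1c side and 5 (5.1%) on the other, and 12% against 10.7% at equal lengths, both below the shares of all regions. Without Flt3-ITD replicate 1 the Flt3-ITD side held 11. Mx1-Cre is activated by interferon, and its induction cannot be told apart from the allele either. Ifih1, a sensor of viral RNA, had 5 of 10, and Ifi44 2 of 3.

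**Figure D2:**
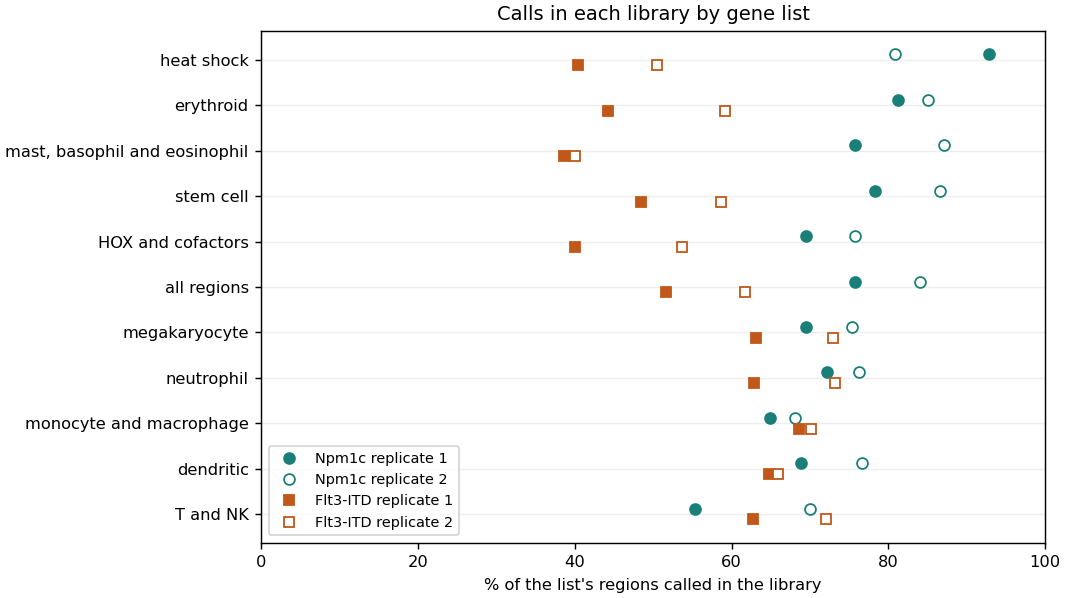
Share of the regions of 10 gene lists and of all regions called in each of the 4 libraries, in percent; filled symbols are replicate 1 and open symbols replicate 2. Npm1c and Flt3-ITD libraries are apart for all regions (75.8% and 84.0% against 51.7% and 61.7%) and for erythroid genes (81.3% and 85.1% against 44.3% and 59.2%). They overlap for T and NK genes (55.3% and 70.0% against 62.7% and 72.0%).

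On the Flt3-ITD side, T and NK genes led: 29 of 150 regions (19.3%) were Flt3-ITD-side and 14 (9.33%) Npm1c-side, and 30.1% against 8.13% at equal lengths.
Npm1c replicate 1 had calls in 55.3% of the list's regions and replicate 2 in 70.0%, while the Flt3-ITD libraries had 62.7% and 72.0%, so the genotypes overlapped. Without Npm1c replicate 1 the counts were 30 and 34, an order opposite to that over all 4 libraries. Leaving out an Npm1c library relaxes the rule on that side, and all regions then had 5517 and 26423. The list thus kept a far smaller Npm1c count relative to the other side than all regions. Without Flt3-ITD replicate 2 the list's counts were 36 and 26.
Runx3, a transcription factor of cytotoxic T and NK cells, had 11 of 27 regions on the Flt3-ITD side and none on the other, Notch1, a receptor that directs T cell fate, 5 of 9, and Thy1, a T cell and progenitor surface protein, 3 of 5.
Other members went the other way, with Themis, a T cell signalling adaptor, at 3 of 4 Npm1c-side regions, Klrb1c, the NK1.1 antigen gene, at 3 of 8, and Cd247, a T cell receptor subunit, at 3 of 14.
Regions of these genes were called while the defining T and NK markers had none. Of the 29 regions, 25 (86.2%) were called in both DM libraries, near the 83.0% of all Flt3-ITD-side regions.

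Monocyte and macrophage genes had 30 of 191 regions (15.7%) on the Flt3-ITD side and 27 (14.1%) on the Npm1c side, and 23.6% against 9.94% at equal lengths. Without Npm1c replicate 1 the counts were 36 and 41 and without Npm1c replicate 2 36 and 38, again in the opposite order. All regions had 5517 and 26423, and 6258 and 21649, in these settings, so the list's Npm1c count stayed relatively small.
The members split. Irf8, the transcription factor that sets monocyte and dendritic fate, had 7 of 17 regions on the Flt3-ITD side, Ly86, a partner of a Toll-like receptor family protein, 8 of 19, and Cebpb 4 of 23, and none of them had an Npm1c-side region.
Zeb2, a transcriptional repressor gene of the same list, had 18 of 39 on the Npm1c side and none on the other. Without Npm1c replicate 1 Zeb2 had 28, and without Flt3-ITD replicate 2 Irf8 had 11 on its side.
Peaks covered 5.87% and 3.47% of the Irf8 gene in Flt3-ITD, 1.0% and 0.742% in Npm1c, 3.7% and 2.5% in WT, and 36.0% and 64.4% in DM. The order of the single mutants follows from the choice of the gene, and the DM libraries were above both.
Of the 30 Flt3-ITD-side regions of this list, 29 (96.7%) were called in both DM libraries, against 83.0% of all Flt3-ITD-side regions.

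Dendritic genes had 18 of 176 regions (10.2%) on the Flt3-ITD side and 35 (19.9%) on the Npm1c side, with 21.9% and 10.6% at equal lengths. Tcf4, the factor of plasmacytoid dendritic cells, made up 18 of the 35, and Ccr7, the chemokine receptor of migrating dendritic cells, had 3 of 8 regions on the Flt3-ITD side. Irf8, also in the monocyte list, made up 7 of the 18 Flt3-ITD-side regions, and Bcl11a, also in the erythroid list, 9 of the 35.
Neutrophil genes had 9 of 97 (9.28%) and 14 (14.4%), with 22.4% and 3.95% at equal lengths. Without Flt3-ITD replicate 1 the Flt3-ITD side held 15. Mpo, the myeloperoxidase gene, had 1 of 3 regions on the Flt3-ITD side and the calprotectin gene S100a9 3 of 4 on the Npm1c side.
All 18 dendritic and all 9 neutrophil regions of the Flt3-ITD side were called in both DM libraries, against 83.0% of all Flt3-ITD-side regions. The 18 include the 7 at Irf8 that the monocyte list also counts.
For both lists the order of the shares depended on list length.

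Megakaryocyte genes had 16 of 203 regions (7.88%) on the Flt3-ITD side and 21 (10.3%) on the Npm1c side, and 18.2% against 6.67% at equal lengths. Without Flt3-ITD replicate 1 the Flt3-ITD side held 32 regions, without Npm1c replicate 1 the Npm1c side held 38, and without Flt3-ITD replicate 2 the counts were 25 and 35.
Gp9 had 3 of 5 regions on the Flt3-ITD side, the platelet tetraspanin gene Cd9 3 of 20, and Gp6, the platelet collagen receptor gene, its only region. Rab27b, which serves platelet granules, had 7 of 15 on the Npm1c side.
In contrast to the myeloid lists, 12 of the 16 Flt3-ITD-side regions were called in neither DM library and 7 in neither WT library.

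Genes of JAK-STAT and FLT3 signalling had 39 of 398 regions (9.8%) on the Flt3-ITD side and 61 (15.3%) on the Npm1c side, and 19% against 9.33% at equal lengths.
Socs3, a feedback inhibitor of JAKs, had 6 of 14 regions on the Flt3-ITD side, Ccnd1, a cell cycle target of the pathway, 6 of 17, and Stat5b, a transcription factor downstream of FLT3-ITD, 4 of 15 against 2 on the Npm1c side.
Jak1 had 11 of 36 regions on the Npm1c side, Pik3r1, a PI3K subunit, 12 of 35 and the survival gene Bcl2 10 of 27. Jak1 had 21 and Bcl2 16 without Npm1c replicate 1.
Pathway genes thus lay on both sides. Feedback genes of RAS-MAPK likewise had 29 of 142 regions (20.4%) on the Npm1c side and 11 (7.75%) on the other, and 11.5% against 20.4% at equal lengths, the opposite order. Without Npm1c replicate 2 the Flt3-ITD side held 19. Members stood on both sides, with Spry2 and Spred1 at 6 of 11 and 7 of 14 Npm1c-side and Nf1 at 5 of 9 Flt3-ITD-side.

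B lymphoid genes had 30 of 143 regions (21%) on the Npm1c side and 12 (8.39%) on the Flt3-ITD side, and equal shares of 17.2% at equal lengths. The Npm1c side held 47 without Npm1c replicate 1. Pax5, the B cell identity factor, had 3 of 4 regions on the Flt3-ITD side and Ikzf1, a lymphoid zinc finger factor, 12 of 32 on the Npm1c side.
DNA methylation and chromatin genes stood at 15.8% and 6.33%, and at 6.98% and 15.1% at equal lengths. Their 35 Npm1c-side regions were 59 without Npm1c replicate 1, and their 14 Flt3-ITD-side regions 28 without Flt3-ITD replicate 1. They included Tet2, a DNA demethylase, at 12 of 20 regions on the Npm1c side, and Dot1l, the H3K79 methyltransferase, at 4 of 9 on the other.
Stroma and endothelium genes had 25.3% and 7.69%, and housekeeping genes 14.3% and 3.06%. At equal lengths the order turned in both, with 11.1% and 22.2% for stroma and 8.86% and 13.9% for housekeeping genes. Stroma counts of 23 and 7 were 35 without Npm1c replicate 1, and 12 and 17 on the Flt3-ITD side without Npm1c replicate 2 and Flt3-ITD replicate 1. Housekeeping counts of 14 and 3 were 23 without Flt3-ITD replicate 2, and 5 and 8 on the Flt3-ITD side without Npm1c replicate 2 and Flt3-ITD replicate 1.
Among stroma markers the collagen gene Col1a2 had 6 of 8 regions on the Npm1c side with a covered start in both Npm1c libraries, both WT libraries and no Flt3-ITD or DM library, so regions of non-haematopoietic genes were among those that differed. Calls covered 60.4% and 75.8% of this list's regions in Npm1c, 42.9% and 54.9% in Flt3-ITD, 84.6% and 64.8% in WT, and 57.1% and 57.1% in DM. All regions had 75.8% and 84.0%, 51.7% and 61.7%, 86.2% and 71.9%, and 55.9% and 57.8% in the same order. The start sites of Lepr, a marker of marrow stroma, were covered in none of the 4 single-mutant libraries. Its 1 region was called in both Npm1c and neither Flt3-ITD library. Cdh5 had 4 of 8 regions on the Npm1c side, but 0 against 1 at equal lengths. Col1a1 had 1 of 4 on the Flt3-ITD side. The part of such cells in the results was not tested.

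**Figure D3:**
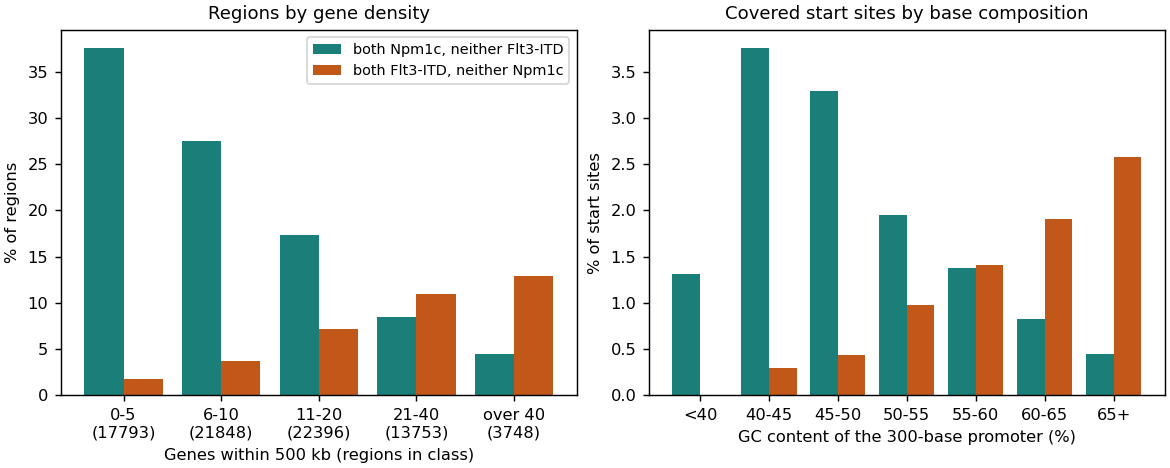
Left, share of regions on each side by the number of genes within 500 kb of the region's midpoint, in percent of the regions in the class. Right, share of start sites covered on 1 side only by GC content of the 300-base promoter, in percent of start sites; the Npm1c side goes from 37.6% to 4.46% over gene density while the Flt3-ITD side goes from 1.81% to 12.9%.

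The sides lay in different parts of the genome. Npm1c-side regions had a median of 7 genes within 500 kb, Flt3-ITD-side regions 18, and all regions 11.
Where at most 5 genes lay that near, 37.6% of regions were Npm1c-side and 1.81% Flt3-ITD-side; above 40 genes the shares were 4.46% and 12.9%.
The Npm1c-side share fell and the Flt3-ITD-side share rose from each class to the next. Gene-dense chromosomes 11 (11.5% and 13%) and 19 (11% and 11.9%) were the only ones with more Flt3-ITD-side than Npm1c-side regions.
Chromosome X stood at the other end, with 36.4% and 0.828%. It held 2.42% and 2.5% of the peaks in Npm1c, 1.51% and 1.58% in Flt3-ITD, 2.08% and 2.09% in WT, and 1.78% and 1.83% in DM. The labels used here give no sex, and all libraries listed between 3 and 7 peaks on Y.

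The gene lists differ in gene density, so each was also set beside the share of all regions weighted to its own density classes.
Mast cell genes were at 35.7% against 21.7% on the Npm1c side, heat shock genes at 31.3% against 18.6%, erythroid genes at 24.6% against 21.6% and interferon genes at 25.5% against 18.6%, while stem cell genes (25.1% against 27.1%) and HOX genes (27.4% against 29.4%) were below theirs.
On the Flt3-ITD side, T and NK genes were at 19.3% against 7.18%, monocyte genes at 15.7% against 5.25%, dendritic genes at 10.2% against 5.75% and B lymphoid genes at 8.39% against 4.27%. RAS-MAPK genes (7.75% against 4.02%), JAK-STAT genes (9.8% against 7.0%) and AP-1 genes (9.14% against 7.27%) were also above theirs. HOX (5.26% against 4.14%), stroma (7.69% against 6.31%) and chromatin genes (6.33% against 5.77%) were above by less. Neutrophil genes (9.28% against 8.89%), megakaryocyte genes (7.88% against 7.12%) and stem cell genes (4.62% against 4.57%) were near theirs. Mast cell, heat shock, erythroid, interferon and housekeeping genes were below theirs.
The Npm1c excess of stem cell and HOX genes was thus no larger than that of other regions of like gene density. The part that gene density or base composition has in the other lists was not tested.

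**Figure D4:**
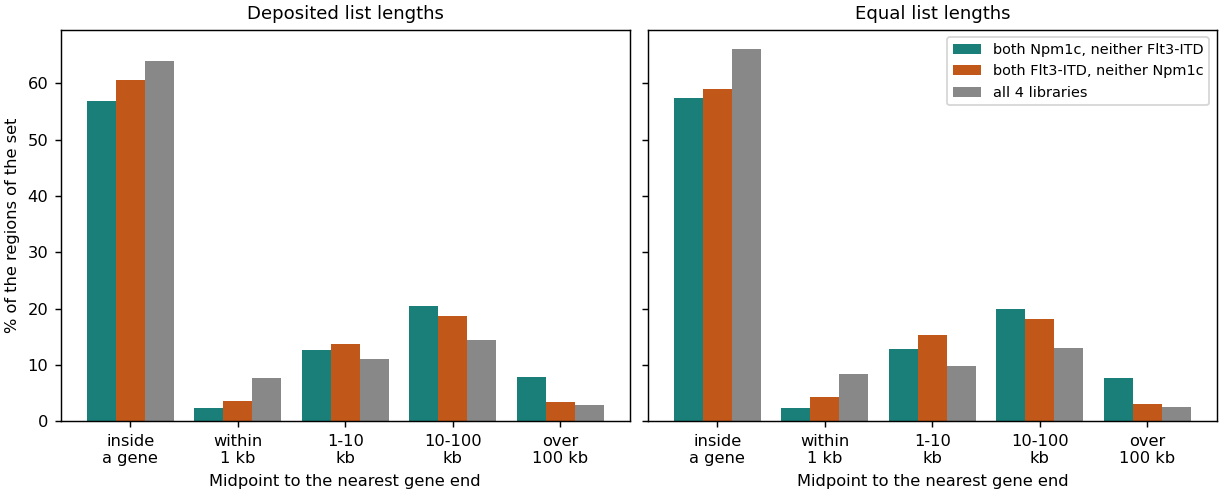
Position of the regions of each side and of regions called in all 4 libraries relative to genes, in percent of the set, with the lists as deposited (left) and at equal lengths (right). Regions over 100 kb outside a gene make up 7.78% of the Npm1c side, 3.37% of the Flt3-ITD side and 2.91% of regions called in all 4.

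Both sides lay mostly away from gene ends. Npm1c-side regions had their midpoint inside a gene in 56.9% of cases, Flt3-ITD-side regions in 60.6% and regions called in all 4 libraries in 63.9%.
Within 1 kb of a gene end, inside or outside, lay 4.87% of Npm1c-side, 11.2% of Flt3-ITD-side and 31.8% of the regions called in all 4, against 17.3% of all regions. Over 100 kb outside a gene lay 7.78%, 3.37% and 2.91%.
Flt3-ITD-side regions were thus closer to gene ends than Npm1c-side regions, and both farther than shared ones. At equal lengths the shares within 1 kb were 5.25%, 11.7% and 36.9%.
The median distance to a start site was 34.1 kb on the Npm1c side and 19.6 kb on the Flt3-ITD side, and the genes to which regions were assigned had median lengths of 66.0 and 37.7 kb.
The table used gives no exons, so exon, intron or untranslated region is not stated for any region.

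The forkhead factor gene Foxp1 and Pde4d, a cAMP phosphodiesterase gene, had the most Npm1c-side regions, 28 each, of 65 and 73, with 1 Flt3-ITD-side region each.
The SOXD factor gene Sox5 had 27 of 55, Nfia, a factor known for promoting erythroid fate, 24 of 53, Fry 23 of 48, Akap13 23 of 50, Rabgap1l 22 of 43, Samsn1, an adaptor of blood cell signalling, 21 of 33 and Psd3 21 of 38.
Sox5, Nfia, Fry and Samsn1 had no Flt3-ITD-side region. Most of these regions were also called in WT: at Sox5 5 of 27 were called in neither WT library, at Foxp1 2 of 28. The share was 15.4% of all Npm1c-side regions.
Samsn1 was the densest run, with 10 Npm1c-side regions in 20 kb (midpoints chr16:75901203-75921091), and 7 of its 21 were called in no WT and no DM library.
Peaks covered 17.2% and 17.3% of Samsn1 in Npm1c, 7.89% and 5.11% in WT, 3.62% and 4.31% in DM, and 1.34% and 1.63% in Flt3-ITD. The order of the single mutants follows from the choice of the gene, and WT and DM lay between them. That choice also favours lower coverage in WT and DM than in Npm1c. Ell2, an elongation factor gene, had the next run, with 9 in 20 kb. At equal lengths Sox5 had the highest count of these, 17 against 0 on the other side, and Foxp1 had 12 against 5.

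On the Flt3-ITD side Gse1 had 13 of 73 regions, and 24 without Flt3-ITD replicate 1, and Runx3 11 of 27. The septin gene Septin9 had 11 of 28, the Rac exchange factor Prex1 11 of 31, Rptor, a subunit of the growth kinase complex mTORC1, 10 of 19, the corepressor Tle3 10 of 27, Neurl1b 9 of 15, Fnbp1 9 of 19 and Rab11fip4 9 of 20.
At Prex1, Tle3, Neurl1b and Rab11fip4 all of these regions (11, 10, 9 and 9) were called in both DM libraries, against 83.0% of all Flt3-ITD-side regions.
Mroh2a was the exception. Its 11 Flt3-ITD-side regions, of 25, lay within 20 kb (midpoints chr1:88228383-88246100), were 496 to 1162 bp wide, and none was called in a WT or DM library. Without Flt3-ITD replicate 2 it had 21.
Peaks covered 62.9% and 53.0% of Mroh2a in Flt3-ITD, 27% and 33.0% in Npm1c, 26.6% and 24.4% in WT, and 6.78% and 4.97% in DM. The order of the single mutants follows from the choice of the gene. WT libraries also lay below Flt3-ITD, which that choice favours too, and DM below all others.
Of the 216 Flt3-ITD-side regions called in no WT and no DM library, these 11 lay at 1 gene, and no other gene had more than 2. The next run was at Rara, the retinoic acid receptor alpha gene, with 6 regions in 20 kb. At equal lengths Mroh2a had 13 regions and Runx3 12 on the Flt3-ITD side, and neither had one on the other.

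The widest regions on each side differed in size. After those at Hbb-bt and Hsph1, the widest on the Npm1c side were at Celf2, an RNA-binding protein gene (2349 and 2977 bp of peaks), Denn2b (2527 and 2520 bp) and Scarb2, a lysosomal membrane protein gene (2357 and 2475 bp), each called in both WT libraries.
Within 1 kb of a gene end the next were at Egr1, an immediate early factor gene (2040 and 2203 bp), the angiopoietin receptor gene Tek (1923 and 1950 bp) and Snx5 (2096 and 1750 bp), again called in both WT and in no DM library.
At Tek the peak over the start site was 295 and 358 bp wide in WT, so the Npm1c peaks were the wider ones.
The widest on the Flt3-ITD side were at Bcl9l, a Wnt pathway coactivator gene (1205 and 1052 bp), Rtn4rl1 (1102 and 1100 bp), Clcf1, a cytokine gene of the IL-6 family (1104 and 1074 bp), Ier5l (1013 and 1157 bp) and Trim46 (1016 and 1146 bp). These 5 were called in both WT and both DM libraries, so Npm1c was the only genotype of the 4 without them.
The same held for Tpm2 (1172 and 878 bp) and Lrp5 (1063 and 969 bp), next among regions at gene ends.

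Of the 21045 start sites, 330 (1.57%) were covered in both Npm1c and neither Flt3-ITD library and 290 (1.38%) in the reverse, and at equal lengths 263 and 437. Start sites were thus split nearly evenly with the lists as deposited, unlike regions as a whole.
The libraries covered between 10728 and 11098 start sites each.
Median GC content of the 300-base promoters was 49.5% on the Npm1c side and 64.0% on the Flt3-ITD side, against 56.7% for all and 62.3% for those covered in all 4 libraries. From 40 to 45% GC, 3.76% of start sites were Npm1c-side and 0.298% Flt3-ITD-side, and at 65% or more 0.443% and 2.58%.
The GATA letters occurred in 17.0% of Npm1c-side and 3.1% of Flt3-ITD-side promoters, C/EBP in 12.7% and 4.14%, IRF in 14.2% and 5.52%, and ETS in 15.5% and 16.9%.
The GATA, C/EBP and IRF letters hold more A and T than G and C. Between 50 and 60% GC the GATA shares were 10.8% (12 of 111) and 6.25% (5 of 80), against 8.99% of all promoters in that class. From 40 to 50% GC they were 24.0% (35 of 146) and 12.5% (2 of 16), against 17.2% of all promoters in that class. From 60 to 70% they were 8.11% (3 of 37) and 1.85% (2 of 108), against 3.25%. Several of these shares thus rest on very few promoters. The C/EBP and IRF orders turned between 50 and 60% GC, with 6.31% and 7.5% for C/EBP and 10.8% and 11.2% for IRF. From 60 to 70% GC the IRF order was also turned, with 0 of 37 and 5 of 108, but that of C/EBP was not. The part of base composition in these shares was not tested further.

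Genes of the lists had 445 of these start sites, of which 15 were Npm1c-side and 7 Flt3-ITD-side.
Besides those already described, the Npm1c side held Alas2, the first enzyme of haem synthesis in red cells, Sox6, Il5ra, S100a9, Erg, Tek, Spry2, Meis2, Gbp3, Ifi44 and Col1a2. The Npm1c peaks at Alas2 (257 and 200 bp) and S100a9 (242 and 291 bp) were narrow. At equal lengths these 2 starts were covered in neither Npm1c library, and that of Meis2 not in replicate 1. The Flt3-ITD side held Ly86, Gp6 and Itgax, the CD11c integrin of dendritic cells. At Spry2 the peaks over the start were 4580 and 4672 bp wide in Npm1c, but no Npm1c-side region of the gene was wider than 687 bp. The region over that start was thus not Npm1c-side, and peaks covered 29.5% and 25.5% of the gene in Flt3-ITD.
No start site of the T and NK, B lymphoid, JAK-STAT, AP-1, heat shock, chromatin or housekeeping lists was on either side, and 20 of 23 heat shock starts were covered in all 4 libraries.
The heat shock regions of the Npm1c side therefore did not lie over these start sites.
At Gbp3, an interferon-induced guanylate-binding protein gene, peaks were 1672 and 2316 bp wide in Npm1c, 1577 and 1364 bp in WT, and none lay in Flt3-ITD or DM. At Ifi44 they were 675 and 575 bp in Npm1c and absent from the other 6 libraries.

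**Figure D5:**
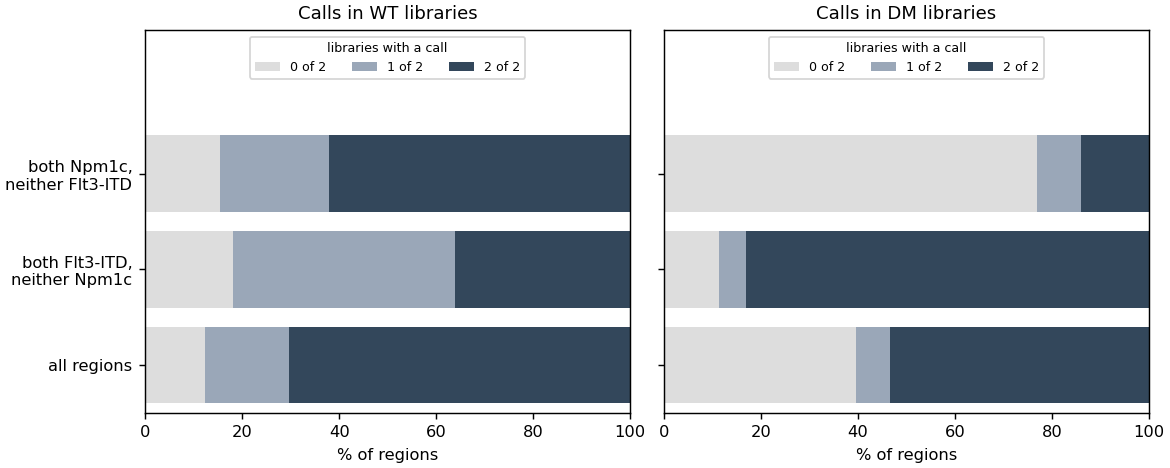
Share of the regions of each side, and of all regions, called in 0, 1 or 2 of the WT libraries (left) and of the double-mutant DM libraries (right), in percent. Npm1c-side regions are called in both WT libraries in 61.9% and in both DM libraries in 14.1% of cases, and Flt3-ITD-side regions in 36.2% and 83.0%.

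WT and DM calls did not enter the choice of regions. Of the Npm1c-side regions, 61.9% were called in both WT libraries and 15.4% in neither, while 14.1% were called in both DM libraries and 77.0% in neither.
Of the Flt3-ITD-side regions, 36.2% were called in both WT libraries and 18.2% in neither, while 83.0% were called in both DM libraries and 11.4% in neither. For all regions the shares called in both were 70.4% in WT and 53.3% in DM.
In DM libraries, regions thus followed the Flt3-ITD pattern on both sides. DM shares the Flt3-ITD allele with one single mutant and Npm1c and Mx1-Cre with the other.
The WT libraries differed on the Flt3-ITD side: replicate 1, with the longest list, had calls in 81.1% of these regions and replicate 2 in 37.0%, against 86.2% and 71.9% of all regions.
With all 8 lists cut to equal length, 37.4% of Npm1c-side and 26.7% of Flt3-ITD-side regions were called in both WT libraries, and 6.33% and 75% in both DM libraries. The order in DM held, and the WT shares were lower.

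The mutated genes themselves were read last. Npm1 had 3 regions, of which the one in the gene was called in all 4 libraries and the 2 outside it, 6535 and 12622 bp away, were Npm1c-side and called in both WT and in no DM library.
Flt3 had 13 regions, 7 of them called in all 4 libraries. An Npm1c-side region lay 2208 bp outside the gene, and a Flt3-ITD-side region of 384 bp lay inside it and was called in both DM and in no WT library.
Mx1, the interferon-induced gene whose promoter drives the Cre, had 2 Npm1c-side regions of 4, and both were called in both DM and in neither WT library.
Reads from the promoter of the transgene and from Mx1 itself cannot be told apart in such lists. The alleles are not visible in peak lists, so none of these regions checks a genotype.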

How the data were processed

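ATAC-seq libraries of 4 lineage-negative samples were compared, with 4 WT and DM libraries read at the chosen regions. Per the submitters' processing notes, Bowtie2, MACS2 and mm10 were used, with no versions named. What was deposited is 1 BED list a library, of intervals without header, height or q-value, so peak width is the only strength measure and depth is unknown. At most 0.0815% of a list lay on other chromosomes and was left out. The WT neutrophil samples were not used here.

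Peaks on chromosomes 1 to 19 and X sharing 1 bp were merged with scripts in Python 3.11.15, numpy 2.4.6, pandas 2.3.3 and scipy 1.17.1, tested on simulated data. A region was assigned to the gene holding its midpoint (the shortest, where several did), or else to the closest gene end up to 100 kb away, from 21633 RefSeq genes (GRCm38.p6). Promoters came from 21045 RefSeq start sites on 19 chromosomes. Genes are named by rule: per side the 10 with most regions, the 5 with the widest peaks, the 5 widest within 1 kb of a gene end, up to 4 a list, the densest 20 kb windows, and Npm1, Flt3 and Mx1. One-sided start sites of list genes, markers and genes with regions in no WT or DM library were named after their values were seen. The members and lists were chosen with earlier results of these data known. Alternatives changed list length, minimum width, merging, gene distance, chromosome X and each library. Backgrounds weighted by gene density and motif shares within GC classes were chosen after seeing the data. Replicates name no animals, so their spread may be technical.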

Additional observations from a re-analysis of the deposited data

How the results depend on the processing

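At equal list lengths the Npm1c side held 8755 regions, the Flt3-ITD side 7992, and the Npm1c share of both was 52.3%. That share was 81.6% with peaks of at least 300 bp, 80.6% where peaks had to cover most of the region and 78.5% without chromosome X, against 79.1% (95% Wilson interval 78.6 to 79.6, counting error only). Merging within 100 bp or over 8 lists moved it by less than that interval. Leaving out each library in turn gave 18586 to 26423 Npm1c-side regions, 5517 to 7874 Flt3-ITD-side regions and shares of 70.2% to 82.7%; dropping a library relaxes the rule, so counts rise. The highest Flt3-ITD-side count came without Flt3-ITD replicate 1. Of 36 list counts, 32 moved at equal lengths by over 1.5 times, 10 with gene ends within 10 kb and 10 with peaks of at least 300 bp. Of 70 gene counts, 44, 20 and 25 moved. No paired analysis was possible because the result comes from no test and the labels do not say that replicate numbers pair libraries across genotypes. The unknown read depth limits every call of absence, since a narrow peak missing from a shorter list may lie under its threshold.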

Other observations

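Of the Npm1c-side regions, 2465 (13.8%) were called in no WT and no DM library. The genes with most of these, chosen after their values were seen, were the neuronal adhesion gene Lsamp with 8 of its 11 Npm1c-side regions, Samsn1 with 7 of 21, Thsd7b with 7 of 19, Lrba with 6 of 16, the phospholipase gene Plcb1 with 6 of 18, and Akap13 (5 of 23), the antiproliferative gene Btg1 (5 of 11) and Cd34 (5 of 11). On the Flt3-ITD side 216 regions (4.57%) were called in no WT and no DM library, and 605 (12.8%) in no WT and both DM libraries.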
